A study of Homo sapiens with 30 samples.

Results

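PEER is an established human leukaemia line of T-ALL, the T-cell form of acute lymphoblastic leukaemia, and is known to carry a γδ T-cell receptor. Its response to decitabine is described here. The members are the 6 PEER libraries of 30 in the series: 3 of cells given 1 µM decitabine for 48 h and 3 of cells given the solvent DMSO for the same time. The other 24 libraries hold the same pair of treatments in the T-ALL lines Loucy, PER-117, TALL-1 and MOLT-16. The labels name no genetic change, and both treatments of a line share the line and its serum-containing medium. Nothing in the labels tells if a treatment's 3 libraries were separate cultures, so p-values measure the spread between these libraries, which may be technical. In a bulk culture, fewer cells of a kind and less RNA per cell cannot be told apart.

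Decitabine is a deoxycytidine analogue. Cells phosphorylate it and build it into replicating DNA, where it traps DNA methyltransferases, so that the methyl mark on cytosines in CpG pairs is lost as cells divide. Dense CpG methylation at a gene's start is linked with a silent gene, and drugs of this class are known to switch on germ-line (cancer-testis) genes and genes of other lineages in leukaemia cells, to trap adducts that call on DNA repair, and in several tumour types to raise interferon-response genes.

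The libraries count reads near the 3′ end of polyadenylated RNA, so a value stands for transcripts of a gene and not for a splice form or a start site. The PEER libraries held between 2824701 and 10621941 reads on the strand of an annotated gene, and the deepest and the shallowest of them were both decitabine libraries. A library numbered DMSO replicate 2 by its title stood apart from the others. Its log-scale correlation was 0.944 with DMSO replicate 1 and 0.942 with DMSO replicate 3, which correlated at 0.987 with each other. It held reads of 7 of 7 genes that TALL-1 expressed under the same treatment and all other PEER libraries, of either treatment, nearly lacked. These stood at a median of 3.50% of their TALL-1 level. It also held reads of 8 of 9 such MOLT-16 genes, at a median of 5.08% of their MOLT-16 level. Decitabine replicate 3 held reads of 1 of 1 such gene of each line, at 2.87% and 1.07%. Counts that moved by over 1.5 times and calls that were lost without DMSO replicate 2, or without another single library, are named with each result. Levels are given as CPM, a gene's reads scaled to a library of standard size, and decitabine-over-DMSO changes on the log2 scale come from the quasi-likelihood test of edgeR, with p-values adjusted by the Benjamini-Hochberg method and genes called at an adjusted p under 0.05.

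The T-cell label held in all 6 libraries. CD3D, a chain of the T-cell receptor complex, stood at 419, 378 and 428 CPM in the decitabine libraries, against 405, 535 and 422 CPM in the DMSO libraries. CD3E, its partner chain, stood at 246, 179.6 and 173 CPM in the decitabine libraries, against 229, 115 and 231 CPM in the DMSO libraries. TRDC, the constant segment of the δ chain, stood at 139, 130.1 and 154 CPM in the decitabine libraries, against 93.4, 87.2 and 104 CPM in the DMSO libraries, with every decitabine library above every DMSO library but an adjusted p of 0.61. CD5, a surface protein of T cells, stood at 117, 131 and 126 CPM in the decitabine libraries, against 110.4, 93.5 and 115 CPM in the DMSO libraries. None of these 4 genes passed the test. TRAC, the constant segment of the α chain, read 18.8, 33.2 and 47.01 CPM in the decitabine libraries, against 13.7, 447 and 38.01 CPM in the DMSO libraries, with DMSO replicate 2 far above the others. Its fitted change was -2.38 (adjusted p = 0.035), and without that library it was 0.32 (adjusted p = 0.78). TRAC was not called without decitabine replicates 1, 2 or 3 or DMSO replicate 2.

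Of 15081 genes tested, 534 were higher after decitabine (3.54%) and 145 were lower (0.961%). At a 2-fold limit the counts were 442 higher and 33 lower. Without DMSO replicate 2, 491 genes were higher (3.26%) and 68 were lower (0.451%), of which 376 and 42 had been called with all 6 libraries; at the 2-fold limit that left 418 and 9. In 524 of the 534 raised genes and 135 of the 145 lowered genes no decitabine library overlapped with a DMSO library, against 12.5% of all tested genes for the upper and 11.2% for the lower order. Calls that held whichever single library was left out numbered 235 higher and 12 lower. The rises sat at the low end of the expression range and the falls at the high end. Among genes with a DMSO mean of up to 0.5 CPM, 183 of 1580 were higher (11.6%) and 1 was lower. Of those 183, 33 passed the filter on low counts only through their decitabine libraries. A gene so close to 0 can hardly be called lower, and the classes use the DMSO level from which the change is measured. Part of this pattern is therefore built in. Among genes over 50 CPM, 33 of 3679 were higher (0.897%) and 81 were lower (2.20%). Of the raised genes, 39 had no read in any DMSO library, and 41 passed the filter on low counts only through their decitabine libraries. Of all tested genes, called or not, 167 passed it only that way. Among the tested members of the lists below these made up 3 in the S100 and annexin list, 2 each in the epithelial, detoxification and T-cell signalling lists, and 1 each in the stem and progenitor, chemokine, muscle, neuronal and eicosanoid lists, so counts and medians there describe the tested members alone. Cancer-testis and myeloid genes accounted for 16 of 31 and 4 of 15 tested members among the raised genes and are not described further. Each list count below is to be read beside the shares of all tested genes, 3.54% higher and 0.961% lower. The share higher depended on the DMSO mean, at 11.6% up to 0.5 CPM, 5.07% at 0.5 to 5 CPM, 2.18% at 5 to 50 CPM and 0.897% over 50 CPM. For lists of low genes 3.54% is therefore too low a yardstick.

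**Figure D1:**
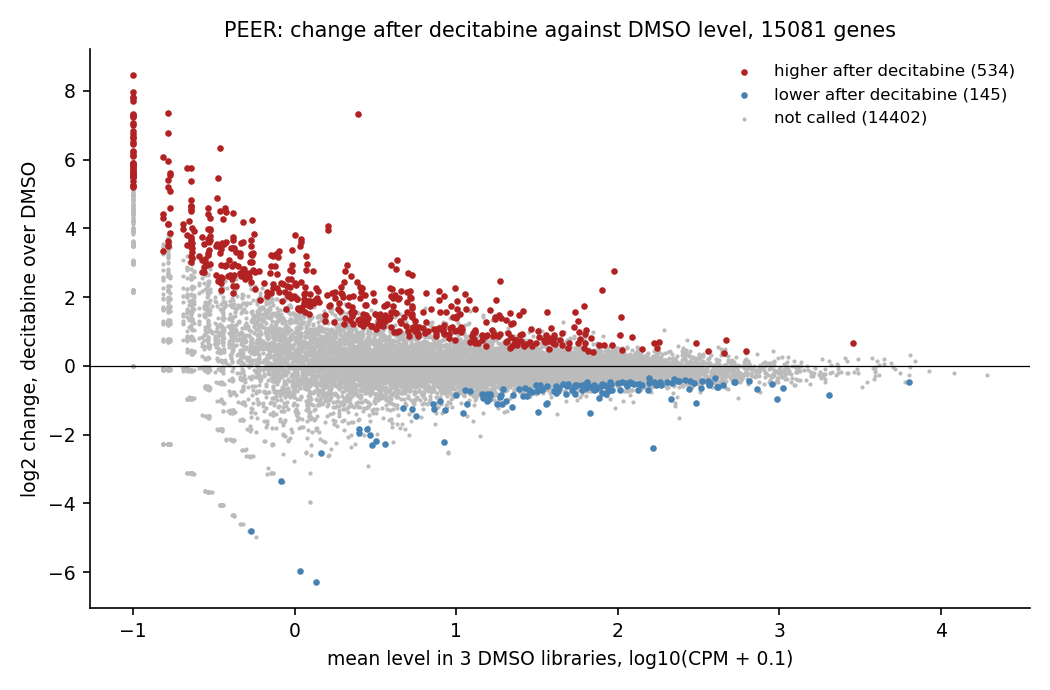
Each point is 1 of 15081 tested genes in PEER, with its mean level in the 3 DMSO libraries on a log10(CPM + 0.1) axis and its log2 change, decitabine over DMSO, on the vertical axis. The 534 raised genes (red) crowd the low end of the axis and the 145 lowered genes (blue) mostly lie within 1 log2 unit of 0 at the high end.

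**Figure D2:**
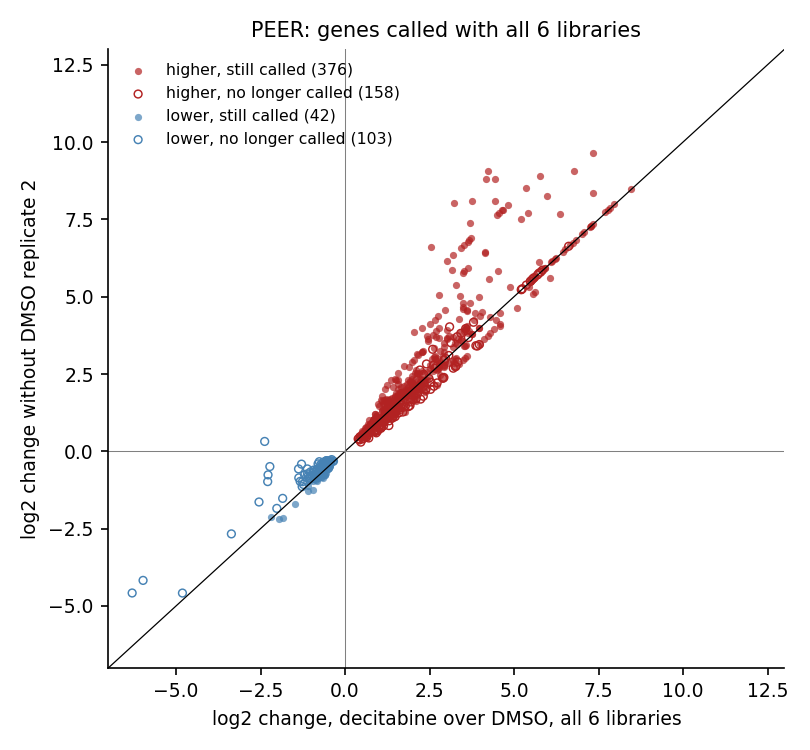
Each point is a gene called with all 6 PEER libraries, with its log2 change (decitabine over DMSO) from all 6 on the horizontal axis and from the 5 libraries left without DMSO replicate 2 on the vertical axis. Filled points (376 higher, 42 lower) were still called, open points were not, the diagonal marks equal values, and raised genes above it had larger fitted changes without that library.

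The strongest rises beyond the cancer-testis and myeloid genes included genes known from muscle, brain and epithelia, most of them near 0 in DMSO. MB, which encodes the oxygen-binding myoglobin of muscle, had 26.7, 19.4 and 15.2 CPM in the decitabine libraries, against 0.157, 0.573 and 0 CPM in the DMSO libraries. Its log2 change was 6.35 ± 0.55 (SE), adjusted p = 4.8e-08. S100A16, a calcium-binding protein of the S100 family, had 7.44, 8.55 and 9.21 CPM in the decitabine libraries, against 0, 0.191 and 0 CPM in the DMSO libraries. Over the 3 DMSO libraries it had 1 read, and the ratio of decitabine to DMSO reads, scaled to depth, was 131 (95% counting interval 23.2 to 5220.0). Every decitabine library was above every DMSO library for both genes, as the rule that picked the largest rises required. TRH, the precursor of thyrotropin-releasing hormone, stood at 24.96, 22.6 and 27.3 CPM in the decitabine libraries, against 0.787, 2.29 and 1.45 CPM in the DMSO libraries, a log2 change of 4.06 ± 0.52 (SE), adjusted p = 8e-05. SEMA4C, a membrane semaphorin that binds plexin receptors, stood at 3.99, 7.26 and 6.67 CPM in the decitabine libraries, against 0.315, 0.573 and 0.413 CPM in the DMSO libraries, a log2 change of 3.66 ± 0.51 (SE), adjusted p = 6.6e-05. TRH and SEMA4C kept their calls and their size without each library in turn.

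The sequences below are the 250 bases before a RefSeq start of these 4 genes, shown because these windows differ widely in CpG content among genes that rose. They are RefSeq sequence of build GRCh38.p14, written 5′ to 3′ on the gene's strand with each CG in capitals, and where RefSeq gives several starts the one nearest the 5′ end of the GENCODE 29 gene was taken. That start lay 8 bases inside the GENCODE 29 gene for S100A16, 415 for TRH, 677 for SEMA4C and 14597 for MB, so the MB window is not at the outermost annotated start of the gene. The window of S100A16 (chr1:153613138-153613387, minus strand) holds 1 CG, that of MB (chr22:35623355-35623604, minus strand) 4, that of TRH (chr3:129974470-129974719, plus strand) 32 and that of SEMA4C (chr2:96870081-96870330, minus strand) 30. Over the 10102 tested protein-coding genes with such a window, 99.1% hold at least 1 CG on this strand, which reads the same on the other strand, and the median is 21 CG. Methylation was not measured here, and 3′ counts do not tell which start was used. No summary over the raised genes is given, since 362 of 487 protein-coding ones (74.3%) had a window.
S100A16: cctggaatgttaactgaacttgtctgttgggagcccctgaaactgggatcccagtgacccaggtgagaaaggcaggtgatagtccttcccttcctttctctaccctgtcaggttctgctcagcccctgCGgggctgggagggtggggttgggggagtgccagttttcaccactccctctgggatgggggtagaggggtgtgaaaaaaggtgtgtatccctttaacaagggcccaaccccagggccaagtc
MB: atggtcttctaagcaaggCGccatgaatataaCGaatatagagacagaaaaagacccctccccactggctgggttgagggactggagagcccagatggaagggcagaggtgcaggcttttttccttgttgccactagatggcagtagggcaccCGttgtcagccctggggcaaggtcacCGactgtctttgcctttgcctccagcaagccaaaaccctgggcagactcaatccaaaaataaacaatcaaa
TRH: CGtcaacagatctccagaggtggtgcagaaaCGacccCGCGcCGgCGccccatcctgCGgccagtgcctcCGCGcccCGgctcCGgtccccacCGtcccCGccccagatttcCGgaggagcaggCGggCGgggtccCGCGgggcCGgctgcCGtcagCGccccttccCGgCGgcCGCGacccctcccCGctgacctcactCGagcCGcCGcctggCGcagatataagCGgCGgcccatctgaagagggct
SEMA4C: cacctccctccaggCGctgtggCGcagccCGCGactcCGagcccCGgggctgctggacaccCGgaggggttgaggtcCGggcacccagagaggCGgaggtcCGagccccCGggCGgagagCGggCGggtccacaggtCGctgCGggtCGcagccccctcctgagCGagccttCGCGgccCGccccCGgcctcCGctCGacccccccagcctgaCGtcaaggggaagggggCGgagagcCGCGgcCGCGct

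The other genes among the 20 largest rises under the same rule covered several tissues. KIF1A, a kinesin of axonal transport, had 5.08, 7.78 and 5.08 CPM with decitabine and 0.157, 0.573 and 0 CPM with DMSO. CYGB, the globin cytoglobin, had 4.08, 6.48 and 4.76 CPM with decitabine and 0, 0.573 and 0.207 CPM with DMSO. CLU, the secreted chaperone clusterin, had 5.899, 7.26 and 8.26 CPM with decitabine and 0.6297, 0.191 and 0 CPM with DMSO. In all 3 genes the decitabine libraries lay above all DMSO libraries, which the rule required. GPER1, a membrane oestrogen receptor, had 5.26, 4.92 and 9.85 CPM with decitabine and 0, 0.763 and 0.6198 CPM with DMSO, and PADI3, an enzyme that converts arginine to citrulline in hair follicles, had 10.6, 10.1 and 7.305 CPM with decitabine and 1.57, 0 and 1.03 CPM with DMSO. NKX2-1, a homeobox factor of thyroid and lung that is also switched on in a subset of T-ALL, had 9.44, 5.44 and 5.08 CPM with decitabine and 0.315, 0.954 and 0.826 CPM with DMSO, and EMP1, an epithelial membrane protein, had 3.18, 4.15 and 8.89 CPM with decitabine and 0.157, 0.954 and 0.207 CPM with DMSO. The treatments did not overlap in these 4 genes, again by the rule that picked them. MB had a fitted log2 change of 7.66 leaving out DMSO replicate 2, KIF1A of 5.83 leaving out DMSO replicate 2, CLU of 5.93 leaving out DMSO replicate 1, CYGB of 3.61 leaving out DMSO replicate 1 and 5.57 leaving out DMSO replicate 2, GPER1 of 3.17 leaving out DMSO replicate 1 and 4.48 leaving out DMSO replicate 2, EMP1 of 4.67 leaving out DMSO replicate 2, PADI3 of 4.2 leaving out DMSO replicate 1. Without DMSO replicate 2, S100A16 had no DMSO read left. NKX2-1 was not called without decitabine replicate 1 or DMSO replicate 1.

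**Figure D3:**
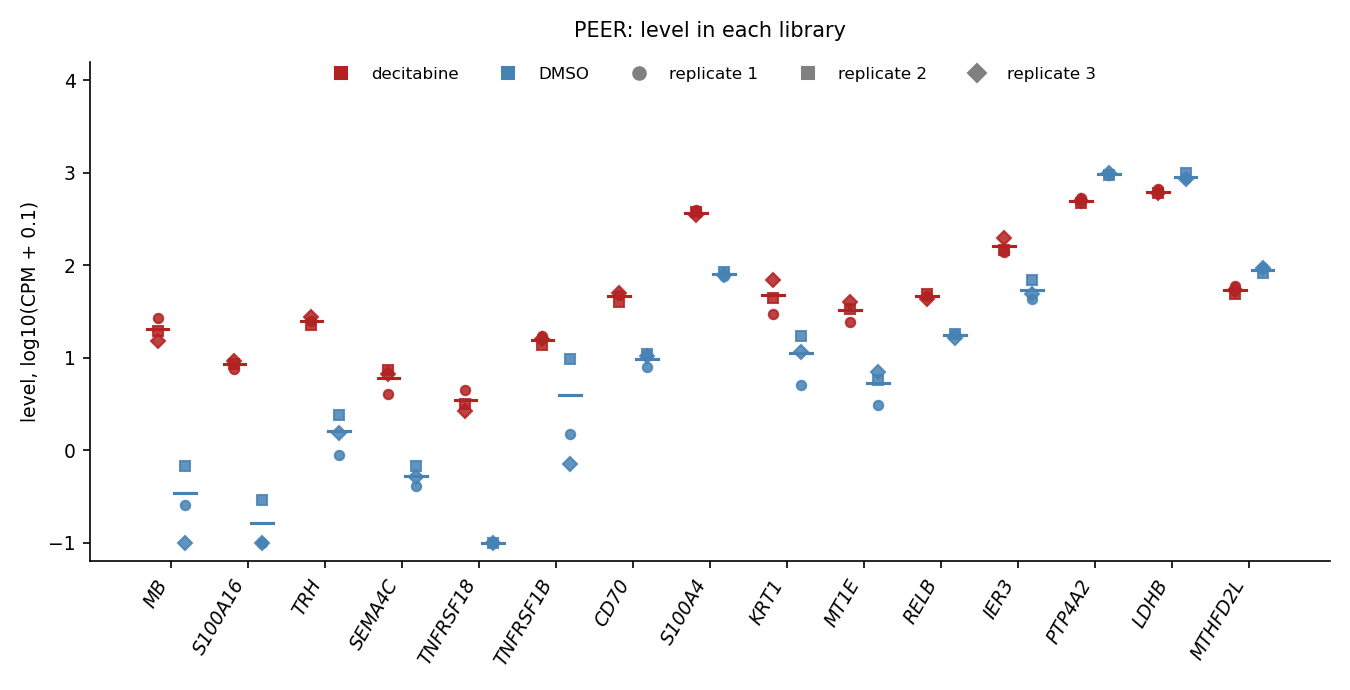
Level of 15 named genes in each of the 6 PEER libraries on a log10(CPM + 0.1) axis, decitabine (red) left of DMSO (blue), with a symbol for each replicate and a bar at the log of the group's mean. The first 12 genes rose and the last 3 fell, with no overlap between treatments in any of the 15, which for some of them was a condition of their choice. DMSO replicate 2 (blue squares) was the highest DMSO library for TNFRSF1B, at 9.54 CPM.

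Calcium-binding S100 and annexin genes rose in part. Of 20 tested, 4 were higher, S100A4, S100A13, S100A16 and S100A9, the list's median log2 change being 0.56 against -0.02 over all tested genes, with 3 of the 20 tested only because their decitabine libraries were high. The count was 7 without DMSO replicate 2. S100A4, known for roles in cell motility, had 392, 374 and 348 CPM in the decitabine libraries, against 77.3, 84.7 and 79.1 CPM in the DMSO libraries, and its 3 values with decitabine lay within a narrow band well above the 3 with DMSO. Its log2 change of 2.21 ± 0.25 (SE), adjusted p = 4e-06 was 2.25 without DMSO replicate 2 and kept its call without each library. S100A13 had 4.72, 6.998 and 7.62 CPM with decitabine and 1.42, 0.954 and 2.07 CPM with DMSO, with no overlap and its call kept without each library. The annexins did not pass the test: ANXA1 stood at 8.803, 12.4 and 13.7 CPM with decitabine and 7.56, 21.9 and 8.06 CPM with DMSO and ANXA2 at 126, 145 and 122 CPM with decitabine and 98.5, 98.8 and 113 CPM with DMSO.

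Of 20 epithelial genes tested 7 were higher, keratins and junction proteins among them, with a median log2 change of 0.56. KRT1, a keratin of the outer epidermis, had 30.04, 44.1 and 69.6 CPM in the decitabine libraries, against 5.04, 17.2 and 11.4 CPM in the DMSO libraries, a log2 change of 2.08 ± 0.32 (SE), adjusted p = 0.00018. KRT8, a keratin of simple epithelia, had 5.54, 7.52 and 6.67 CPM in the decitabine libraries, against 0.787, 0.382 and 0.826 CPM in the DMSO libraries, a log2 change of 3.25 ± 0.61 (SE), adjusted p = 0.0022. Both were higher in all 3 decitabine libraries than in any DMSO library and kept their calls without each library. KRT8 was among the 20 largest rises, for which that order was required. The hair keratins KRT81 and KRT86 rose by 3.81 and 3.69 on the log2 scale. Their sequences are alike, reads that match both are not counted, and KRT81 lies within the span of KRT86 on the opposite strand. The 2 values are therefore uncertain and may not be independent. KRT86 had a fitted log2 change of 4.79 leaving out DMSO replicate 2. JUP, the junction protein plakoglobin, had 37.1, 34.5 and 36.8 CPM with decitabine and 10.4, 15.1 and 8.68 CPM with DMSO (adjusted p = 0.00048), named after its values were seen. MUC1, a cell-surface mucin, and PKP1, a desmosome protein, completed the 7 with log2 changes of 1.29 and 2.05. MUC1 was not called without decitabine replicates 1 or 2 or DMSO replicate 3, nor PKP1 without decitabine replicates 1 or 3 or DMSO replicates 1 or 2. EPCAM, a defining surface protein of epithelia, stood at 1.54, 3.11 and 2.86 CPM with decitabine and 2.204, 0.954 and 1.45 CPM with DMSO and did not pass the test, and CDH1, the epithelial cadherin, did not pass the filter on low counts. The summed level of the epithelial list was 624 to 779 CPM with decitabine and 633 to 730.3 CPM with DMSO.

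Genes of the extracellular matrix and its regulators were higher in 6 of 24 tested, with a median log2 change of 1.03. TIMP3, an inhibitor of matrix metalloproteinases, had 24.5, 23.1 and 20.96 CPM in the decitabine libraries, against 4.41, 7.25 and 3.51 CPM in the DMSO libraries, a log2 change of 2.18 ± 0.45 (SE), adjusted p = 0.004. BGN, the proteoglycan biglycan, had 3.36, 4.41 and 3.49 CPM with decitabine and 0.472, 0.191 and 0.413 CPM with DMSO, a log2 change of 3.29 ± 0.55 (SE), adjusted p = 0.001. For both the treatments did not overlap and no single library decided the call. COL6A1, a collagen VI chain, and LAMA5, a laminin chain, rose by 3.01 and 2.97 on the log2 scale. LAMA5 was not called without decitabine replicates 1, 2 or 3 or DMSO replicates 1 or 3. COL6A1 had a fitted log2 change of 3.65 leaving out DMSO replicate 2, LAMA5 of 2.31 leaving out DMSO replicate 1 and 4.58 leaving out DMSO replicate 2. COL18A1, the collagen that yields endostatin, and TIMP1, another metalloproteinase inhibitor, were the remaining 2, with log2 changes of 2.05 and 1.26. COL1A1, the main fibroblast collagen, had 1.996, 3.11 and 2.86 CPM with decitabine and 0.787, 0.382 and 1.45 CPM with DMSO and did not pass the test (adjusted p = 0.11).

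Metallothioneins, small cysteine-rich proteins that bind zinc and copper, were the largest block in the detoxification list, in which 11 of 30 tested genes were higher. The count was 6 without decitabine replicates 2 or 3 or DMSO replicates 1 or 2, with a median log2 change of 0.42 over the list with all libraries. MT1E had 24.1, 33.4 and 40.3 CPM in the decitabine libraries, against 2.99, 5.72 and 7.02 CPM in the DMSO libraries, a log2 change of 2.64 ± 0.52 (SE), adjusted p = 0.0032, and MT2A, the most widely expressed member, had 164, 198 and 209.9 CPM in the decitabine libraries, against 92.6, 109 and 108 CPM in the DMSO libraries, a log2 change of 0.89 ± 0.18 (SE), adjusted p = 0.003. Both kept their calls without each library and neither overlapped between treatments. MT1F, MT1G, MT1H and MT1X were called as well, with log2 changes of 1.67, 2.19, 4.58 and 1.14. The MT1 genes are near-identical copies, and reads that match several of them are not counted, so the individual MT1 values are uncertain. MT1H had 3 DMSO reads, and its depth-scaled read ratio was 24.3 (95% counting interval 8.02 to 120.4). MT1G was not called without decitabine replicates 1, 2 or 3 or DMSO replicates 1 or 2, nor MT1X without decitabine replicates 2 or 3 or DMSO replicate 2. MT1H had a fitted log2 change of 5.56 leaving out DMSO replicate 3.

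In the same list NQO1, a quinone reductase that answers oxidative stress, had 45.01, 60.1 and 50.5 CPM in the decitabine libraries, against 19.2, 15.8 and 20.04 CPM in the DMSO libraries, a log2 change of 1.49 ± 0.19 (SE), adjusted p = 2.7e-05, which held without each library. HMOX1, the haem-degrading enzyme haem oxygenase 1, had 37.1, 50.8 and 47.96 CPM in the decitabine libraries, against 10.4, 3.24 and 22.3 CPM in the DMSO libraries, and its DMSO values were widely spread. Its log2 change of 1.92 (adjusted p = 0.015) was 1.48 without DMSO replicate 2 (adjusted p = 0.064). HMOX1 had a fitted log2 change of 2.69 leaving out DMSO replicate 3. AKR1C1 and AKR1C2, steroid-reducing enzymes with near-identical sequences, and ALDH3B1, an aldehyde dehydrogenase, made up the 11 with log2 changes of 2.62, 2.91 and 2.62. HMOX1 was not called without decitabine replicate 2 or DMSO replicates 1 or 2, nor AKR1C1 without decitabine replicates 1 or 3 or DMSO replicates 1 or 3, nor AKR1C2 without any 1 of the 6 libraries, nor ALDH3B1 without decitabine replicates 2 or 3 or DMSO replicates 1, 2 or 3. AKR1C2 had a fitted log2 change of 3.69 leaving out DMSO replicate 3. NQO1 and HMOX1 were named after their values were seen.

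**Figure D4:**
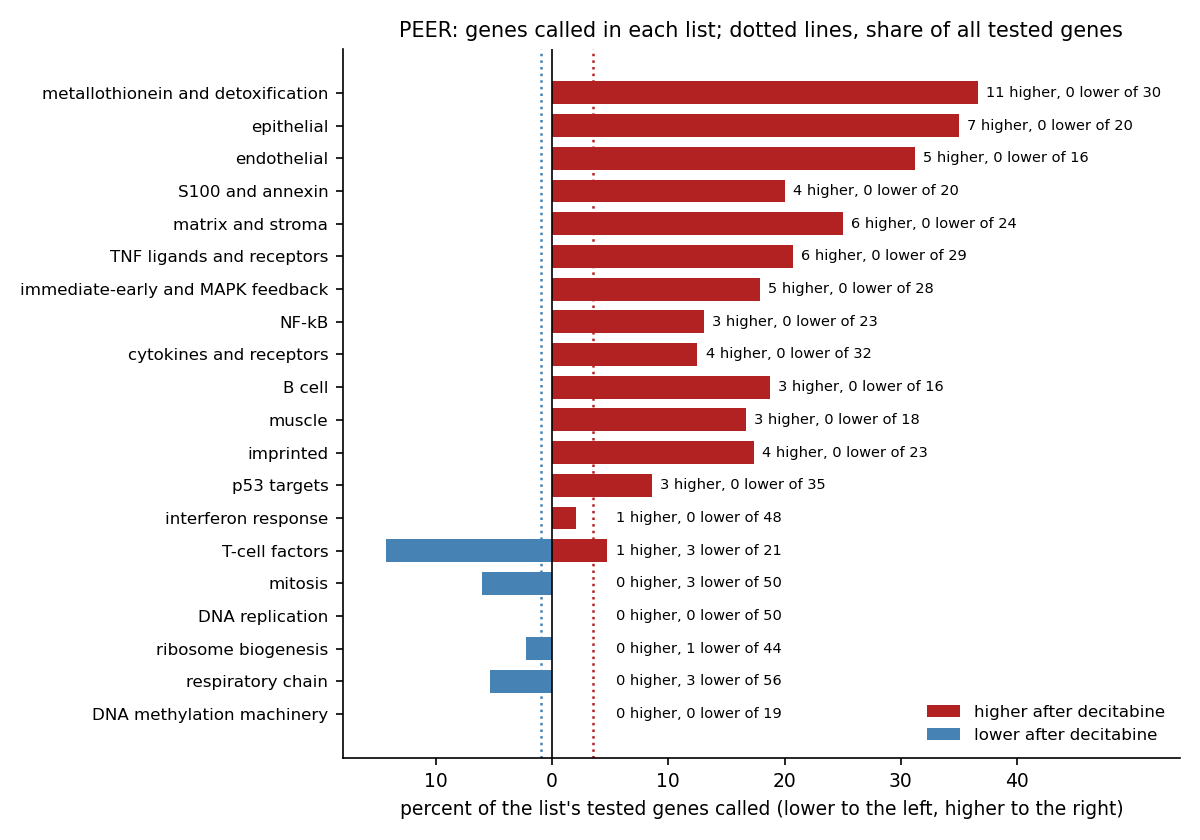
Percent of the tested genes of 20 lists that were called higher (red, right of 0) or lower (blue, left of 0) after decitabine in PEER, with the counts beside each bar and dotted lines at the 3.54% and 0.961% of all tested genes. The detoxification list stands at 11 of 30 and the epithelial list at 7 of 20, whereas the lists at the foot hold 0 raised genes.

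Ligands and receptors of the tumour necrosis factor (TNF) family were higher in 6 of 29 tested, with a median log2 change of 0.74, and in 3 without DMSO replicate 1. TNFRSF18, the co-stimulatory receptor GITR of regulatory and activated T cells, had 4.45, 3.11 and 2.54 CPM in the decitabine libraries, against 0, 0 and 0 CPM in the DMSO libraries, and with no DMSO read the difference was at least 20.97-fold, taking 3 reads over the DMSO group as the floor. TNFRSF1B, the second receptor of TNF, had 16.97, 13.7 and 15.9 CPM in the decitabine libraries, against 1.42, 9.54 and 0.6198 CPM in the DMSO libraries. All 3 decitabine values were above the DMSO values, of which that of replicate 2 stood far above the other 2. Its log2 change of 2.04 ± 0.45 (SE), adjusted p = 0.0062 was 3.86 without that library. In MOLT-16, some of whose transcripts DMSO replicate 2 held, TNFRSF1B averaged 119.8 ± 32.3 CPM with DMSO (SD, n = 3), and the part this plays in the value was not tested.

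Among the ligands of the family CD70, which binds CD27 on lymphocytes, had 47.6, 40.4 and 50.2 CPM in the decitabine libraries, against 7.87, 10.9 and 10.3 CPM in the DMSO libraries, a log2 change of 2.26 ± 0.44 (SE), adjusted p = 0.0024 that held without each library. TNFSF12, the ligand TWEAK, had 6.26, 10.4 and 11.1 CPM with decitabine and 2.204, 3.44 and 2.27 CPM with DMSO, and LTB, lymphotoxin β, had 927, 724 and 703 CPM with decitabine and 462, 447 and 503 CPM with DMSO. The death receptor FAS had 8.98, 10.6 and 13.7 CPM with decitabine and 4.41, 5.92 and 4.13 CPM with DMSO. No library of one treatment overlapped with the other in these 4 genes. TNFSF12 was not called without decitabine replicates 2 or 3 or DMSO replicates 1 or 3, nor LTB without decitabine replicates 1 or 2 or DMSO replicates 1, 2 or 3, nor FAS without decitabine replicate 3, nor TNFRSF1B without DMSO replicate 1. Without DMSO replicate 1 or 3, 1 gene of the family was lower.

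NF-κB is a group of transcription factors that TNF receptors switch on, in a canonical arm (RELA) and a non-canonical arm (RELB). Of 23 NF-κB genes tested, 3 were higher, with a median log2 change of 0.13. RELB had 46.7, 49.2 and 43.2 CPM in the decitabine libraries, against 18.1, 17.9 and 16.1 CPM in the DMSO libraries, a log2 change of 1.42 ± 0.27 (SE), adjusted p = 0.002. BCL3, a nuclear partner of the p50 and p52 subunits, had 25.4, 23.6 and 27 CPM in the decitabine libraries, against 7.87, 8.02 and 9.71 CPM in the DMSO libraries, a log2 change of 1.57 ± 0.36 (SE), adjusted p = 0.01. The RELB and BCL3 values of each treatment lay close together, far from those of the other, and neither call depended on 1 library. BIRC3, an inhibitor of apoptosis and a known NF-κB target, had 23.5, 33.4 and 29.9 CPM with decitabine and 12.3, 21.8 and 12.2 CPM with DMSO. BIRC3 was not called without decitabine replicates 2 or 3 or DMSO replicates 1 or 3.

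Immediate-early and MAP-kinase feedback genes, which cells switch on within minutes of many signals, were higher in 5 of 28 tested, with a median log2 change of 0.79, and in 2 to 8 without decitabine replicates 2 or 3 or DMSO replicates 1, 2 or 3. IER3, a survival-linked early gene, had 139, 147 and 197 CPM in the decitabine libraries, against 42.98, 69.8 and 49.4 CPM in the DMSO libraries, a log2 change of 1.57 ± 0.30 (SE), adjusted p = 0.0023. NR4A2, an orphan nuclear receptor induced by T-cell receptor signals, had 4.99, 3.11 and 5.399 CPM in the decitabine libraries, against 0.315, 0.573 and 0.207 CPM in the DMSO libraries, a log2 change of 3.58 ± 0.54 (SE), adjusted p = 0.0002. IER3 and NR4A2 kept their calls without each library. KLF2, a factor linked with T-cell quiescence and trafficking, had 27.2, 27.7 and 29.5 CPM with decitabine and 5.04, 9.73 and 4.54 CPM with DMSO, a log2 change of 2.13 ± 0.51 (SE), adjusted p = 0.012. NR4A3 had 1 DMSO read and a depth-scaled read ratio of 20.97 (95% counting interval 3.405 to 864), and FOSL2, an AP-1 subunit, had 46.01, 52.1 and 53.4 CPM with decitabine and 24.7, 20.99 and 19.4 CPM with DMSO. KLF2 was not called without DMSO replicates 1 or 3, nor NR4A3 without decitabine replicates 2 or 3 or DMSO replicates 1 or 3, nor FOSL2 without decitabine replicates 2 or 3 or DMSO replicate 3. Without DMSO replicate 3, 1 gene of this list was lower. NR4A3 had a fitted log2 change of 6.43 leaving out DMSO replicate 2.

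Among 32 cytokines and cytokine receptors, 4 were higher, with a median log2 change of 0.38, and the count was 2 without decitabine replicate 3 or DMSO replicate 1. CSF1, the growth factor of macrophages, had 6.71, 6.998 and 6.67 CPM with decitabine and 0.472, 2.29 and 2.07 CPM with DMSO, and IL23A, the specific subunit of interleukin 23, had 18.4, 18.1 and 25.4 CPM with decitabine and 9.45, 8.02 and 10.3 CPM with DMSO. IL21R, the interleukin 21 receptor, had 46.01, 40.95 and 52.7 CPM with decitabine and 22.8, 32.4 and 19.01 CPM with DMSO. IL1RL1, the receptor of interleukin 33, had 1 DMSO read and a depth-scaled read ratio of 27.4 (95% counting interval 4.55 to 1116). The treatments did not overlap in these 4 genes. CSF1 was not called without DMSO replicate 1, nor IL23A without decitabine replicate 3, nor IL21R without decitabine replicates 1, 2 or 3 or DMSO replicates 1 or 3. IL1RL1 had a fitted log2 change of 4.004 leaving out DMSO replicate 1 and 6.89 leaving out DMSO replicate 3. Of 20 chemokine genes none passed edgeR's test, 5 had an unadjusted p under 0.05 and a higher level, and 1 had such a p and a lower level. DESeq2, run here and below on the PEER libraries alone, called none and gave 3 of them no adjusted p. The count of higher chemokine genes was 2 without DMSO replicate 2 and 1 without decitabine replicate 1. In the JAK-STAT list 2 of 24 were higher, PIM2 and PTPN6, and PTPN2 was lower. PIM2, a survival kinase, had 90.8, 90.2 and 82.6 CPM in the decitabine libraries, against 48.2, 41.03 and 46.1 CPM in the DMSO libraries, a log2 change of 0.96 ± 0.20 (SE), adjusted p = 0.0046 that held without each library. PTPN6 was not called without decitabine replicates 1 or 2 or DMSO replicates 1 or 2, nor PTPN2 without any 1 of the 6 libraries.

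Eicosanoid enzymes and receptors, which make and sense prostaglandins, thromboxane and leukotrienes, were higher in 4 of 17 tested and lower in 1, with a median log2 change of 0.41. The enzyme TBXAS1, which makes thromboxane, had 7.35, 9.07 and 7.305 CPM in the decitabine libraries, against 1.89, 4.77 and 3.51 CPM in the DMSO libraries, a log2 change of 1.23 ± 0.26 (SE), adjusted p = 0.0039 that held without each library. The thromboxane receptor gene TBXA2R had 1 DMSO read and a depth-scaled read ratio of 48.3 (95% counting interval 8.304 to 1944). The prostacyclin receptor gene PTGIR had 4.54, 5.702 and 6.35 CPM in the decitabine libraries, against 0, 0.191 and 1.65 CPM in the DMSO libraries, a log2 change of 3.23 ± 0.64 (SE), adjusted p = 0.0029. PTGS1, the cyclooxygenase upstream of all of these, had 3 DMSO reads and a ratio of 8.51 (95% counting interval 2.63 to 43.7). In the other direction PTGES3, a co-chaperone, had 380.2, 376 and 375 CPM with decitabine and 495, 622 and 458 CPM with DMSO. PTGS1 was not called without decitabine replicates 1 or 3 or DMSO replicates 1 or 3, nor PTGES3 without decitabine replicates 1, 2 or 3 or DMSO replicate 2. TBXA2R had a fitted log2 change of 7.5 leaving out DMSO replicate 2, PTGIR of 2.56 leaving out DMSO replicate 1 and 5.73 leaving out DMSO replicate 3, PTGS1 of 3.93 leaving out DMSO replicate 2.

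Cyclin-dependent kinase inhibitors were higher in 2 of 6 tested, CDKN1A (p21) and CDKN1C (p57). CDKN1C had 5.45, 6.48 and 6.99 CPM in the decitabine libraries, against 0.157, 1.91 and 0 CPM in the DMSO libraries, a log2 change of 3.16 ± 0.63 (SE), adjusted p = 0.0028, and DMSO replicate 2 held nearly all of its DMSO reads. CDKN1A had 13.1, 16.1 and 18.4 CPM in the decitabine libraries, against 2.05, 7.82 and 2.07 CPM in the DMSO libraries. CDKN1C had a fitted log2 change of 5.87 leaving out DMSO replicate 2, CDKN1A of 2.9 leaving out DMSO replicate 2. Of 35 p53 target genes 3 were higher, CDKN1A, FAS and GDF15, a stress-induced cytokine with 2.27, 3.63 and 6.04 CPM with decitabine and 0.157, 0.763 and 0.413 CPM with DMSO, and the list's median log2 change was 0.10. Without DMSO replicate 1 or 3, 1 p53 target was lower. GDF15 was not called without DMSO replicate 1, nor FAS without decitabine replicate 3. GDF15 had a fitted log2 change of 3.65 leaving out DMSO replicate 2. MDM2, a classical p53 target, stood at 78.5, 74.4 and 87.7 CPM in the decitabine libraries, against 70.7, 85.3 and 80.6 CPM in the DMSO libraries, and its groups overlapped (adjusted p = 0.97). Among 16 genes of the BCL2 family none passed edgeR's test, 1 had an unadjusted p under 0.05 with a lower level, and DESeq2 called none.

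Cell-cycle lists held few calls by edgeR. Of 50 replication genes none passed edgeR's test, although the median log2 change was -0.19, 8 had an unadjusted p under 0.05 and a lower level and 1 a higher level, and DESeq2 called 3 lower. PCNA, the sliding clamp of DNA polymerases, had 319, 324 and 342 CPM in the decitabine libraries, against 429, 513 and 434 CPM in the DMSO libraries (adjusted p = 0.28). Of 50 mitosis genes 3 were lower, with a median log2 change of -0.34, 19 had an unadjusted p under 0.05 and a lower level, none had such a p and a higher level, and DESeq2 called 7 lower. The count was 2 without DMSO replicate 2 and 0 to 1 without decitabine replicates 1, 2 or 3. SPC24, a kinetochore subunit, had 51.3, 49.8 and 43.2 CPM in the decitabine libraries, against 72.1, 76.1 and 69.8 CPM in the DMSO libraries, a log2 change of -0.59 ± 0.14 (SE), adjusted p = 0.013, and BUB1B, a spindle-checkpoint kinase, had 43.9, 56.2 and 59.1 CPM with decitabine and 75.4, 105 and 79.1 CPM with DMSO. KIF4A, a chromosome-bound kinesin, had 83.9, 74.1 and 82.9 CPM with decitabine and 104, 121 and 112 CPM with DMSO. SPC24 was not called without decitabine replicate 3, nor BUB1B without decitabine replicates 1, 2 or 3 or DMSO replicate 2, nor KIF4A without any 1 of the 6 libraries. Of 44 genes of ribosome biogenesis 1 was lower, POLR1B, a subunit of RNA polymerase I, and the median log2 change was -0.23, with 13 genes lower at an unadjusted p under 0.05. POLR1B was not called without decitabine replicates 1, 2 or 3 or DMSO replicate 2.

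DNA repair genes held 1 call in each direction, with 1 higher (2.22%) and 1 lower of 45 tested and a median log2 change of -0.16. Among all tested genes 3.54% were higher and 0.961% lower. OGG1, the glycosylase that removes oxidised guanine, had 24.2, 18.1 and 18.1 CPM in the decitabine libraries, against 11.8, 13.4 and 14.1 CPM in the DMSO libraries, a log2 change of 0.66 ± 0.16 (SE), adjusted p = 0.018. POLI, a translesion polymerase, had 3.18, 3.63 and 1.91 CPM in the decitabine libraries, against 5.35, 9.73 and 6.61 CPM in the DMSO libraries, a log2 change of -1.26 ± 0.32 (SE), adjusted p = 0.018. OGG1 was not called without decitabine replicate 1 or DMSO replicate 1, nor POLI without decitabine replicates 1 or 3 or DMSO replicate 2. Without DMSO replicate 3, 2 repair genes were higher. The 19 genes of the DNA methylation machinery held no call in edgeR's test or by DESeq2, with 2 higher and 1 lower at an unadjusted p under 0.05. DNMT1, the maintenance methyltransferase that decitabine traps, had 391, 448 and 498 CPM in the decitabine libraries, against 589, 844 and 493 CPM in the DMSO libraries, and the ranges overlapped (adjusted p = 0.37). DNMT3A, a de novo methyltransferase, had 78.2, 60.9 and 64.2 CPM in the decitabine libraries, against 52.1, 50 and 49.99 CPM in the DMSO libraries, with no overlap but an adjusted p of 0.094. DCK, the kinase that activates decitabine, had 27.5, 32.7 and 39.4 CPM in the decitabine libraries, against 30.7, 35.7 and 31.4 CPM in the DMSO libraries (adjusted p = 1).

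Genes of the interferon response were higher in 1 of 48 tested (2.08%, against 3.54% of all tested genes), with a median log2 change of -0.09. That gene, the membrane protein IFITM3, had 9.53, 9.07 and 7.94 CPM in the decitabine libraries, against 2.68, 4.39 and 3.72 CPM in the DMSO libraries, a log2 change of 1.32 ± 0.39 (SE), adjusted p = 0.045, and its call was lost without any 1 of the 6 libraries. ISG15, a ubiquitin-like protein induced by interferon, had 24.4, 18.1 and 24.5 CPM in the decitabine libraries, against 24.4, 29.4 and 28.1 CPM in the DMSO libraries, with overlapping ranges (adjusted p = 0.54). Of 16 sensors and adaptors of foreign nucleic acid none passed edgeR's test, 2 were higher at an unadjusted p under 0.05, and DESeq2 called none. Of 19 class I antigen-presentation genes edgeR called none and DESeq2 called 1 higher, with 2 higher and 3 lower at an unadjusted p under 0.05. Of 11 class II genes both tools called none, DESeq2 giving 2 of them no adjusted p, and 1 was higher at an unadjusted p under 0.05 by edgeR.

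Among silencing factors RYBP, a subunit of variant Polycomb repressive complex 1, was the 1 gene of 29 tested that was higher, with 147, 140.2 and 136 CPM in the decitabine libraries, against 87.4, 93.9 and 96.3 CPM in the DMSO libraries and a log2 change of 0.61 ± 0.12 (SE), adjusted p = 0.0024 that held without each library. Its treatments were separated by a gap wider than the spread within either. The Polycomb list's share of 3.45% was close to the 3.54% of all tested genes. Of 19 genes of histone H3 lysine 9 silencing edgeR and DESeq2 called none, with 5 lower at an unadjusted p under 0.05. Of 33 histone genes 4 were higher and 1 was lower. The linker histone gene HIST1H1C had 70.96, 64.8 and 58.8 CPM in the decitabine libraries, against 34.5, 28.2 and 33.9 CPM in the DMSO libraries, a log2 change of 1.01 ± 0.21 (SE), adjusted p = 0.0037. HIST1H2BG and HIST1H4H rose by 1.42 and 1.77 on the log2 scale and HIST1H2AG by 1.44. H2AFZ, the variant H2A.Z, had 4868, 4827 and 4193 CPM with decitabine and 6994, 6245 and 5963 CPM with DMSO. Replicative histone genes are near-identical copies, so their single values are uncertain. The libraries count polyadenylated RNA, so the changes do not stand for any other RNA of the histone genes. HIST1H2AG was not called without decitabine replicate 1 or DMSO replicates 2 or 3, nor H2AFZ without any 1 of the 6 libraries.

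Imprinted genes, which are normally expressed from 1 parental copy under the control of DNA methylation, were higher in 4 of 23 tested, with a median log2 change of 0.05. PHLDA2, which restrains placental growth, had 8.89, 12.7 and 12.4 CPM in the decitabine libraries, against 0.6297, 2.099 and 0.207 CPM in the DMSO libraries, a log2 change of 3.49 ± 0.48 (SE), adjusted p = 6.1e-05. DLK1, a Notch-like ligand, had 1.18, 2.59 and 1.59 CPM in the decitabine libraries, against 0, 0 and 0 CPM in the DMSO libraries, at least 8.51-fold higher with 3 reads over the DMSO group as the floor. CDKN1C belongs here as well, and PLAGL1, a zinc-finger factor, had 11.7, 14.5 and 6.35 CPM with decitabine and 3.62, 9.16 and 3.31 CPM with DMSO with overlapping ranges. PLAGL1 was not called without decitabine replicates 1 or 2 or DMSO replicates 1 or 3. PHLDA2 had a fitted log2 change of 4.59 leaving out DMSO replicate 2, PLAGL1 of 1.67 leaving out DMSO replicate 2. Of 228 zinc-finger genes of chromosome 19 named ZNF, 1 was higher and the median log2 change was 0.

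T-cell transcription factors were lower in 3 of 21 tested and higher in 1, with a median log2 change of -0.12. Among all tested genes 0.961% were lower and 3.54% higher. LEF1, a partner of β-catenin in thymocytes, had 387, 457 and 531 CPM in the decitabine libraries, against 665, 811 and 705 CPM in the DMSO libraries, a log2 change of -0.67 ± 0.17 (SE), adjusted p = 0.025. BCL11B, a factor that commits progenitors to the T lineage, had 241, 192 and 202 CPM in the decitabine libraries, against 345, 272 and 370.2 CPM in the DMSO libraries, a log2 change of -0.63 ± 0.16 (SE), adjusted p = 0.021. IKZF1, the factor Ikaros, had 210.4, 209 and 197 CPM with decitabine and 262, 322 and 251 CPM with DMSO. The 3 falls were each under 1 log2 unit, and for each the decitabine libraries lay below the DMSO libraries. LEF1 was not called without decitabine replicates 1 or 2 or DMSO replicate 2, nor BCL11B without decitabine replicates 2 or 3 or DMSO replicates 1 or 3, nor IKZF1 without decitabine replicates 1, 2 or 3 or DMSO replicate 2. ID2, an inhibitor of E proteins, rose with 8.89, 11.9 and 16.5 CPM in the decitabine libraries, against 2.52, 8.02 and 1.45 CPM in the DMSO libraries, a log2 change of 1.58 ± 0.35 (SE), adjusted p = 0.0061. ID2 was not called without DMSO replicate 1. ID2 had a fitted log2 change of 2.53 leaving out DMSO replicate 2. GATA3 had 344, 328 and 347 CPM with decitabine and 262, 256 and 321 CPM with DMSO and TCF7 had 266, 258 and 278 CPM with decitabine and 314, 309 and 339 CPM with DMSO, and neither passed the test.

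Of 32 T-cell surface and signalling genes 2 were higher (6.25%, against 3.54% of all tested genes), the co-receptor genes CD8A and CD8B. CD8A had 9.53, 9.85 and 8.26 CPM in the decitabine libraries, against 2.68, 2.86 and 4.34 CPM in the DMSO libraries. The log2 changes of CD8A and CD8B were 1.5 and 2.18. Their DMSO means were 3.29 and 1.3 CPM, and of all tested genes at 0.5 to 5 CPM 5.07% were higher. CD8A was not called without decitabine replicates 1 or 2 or DMSO replicates 1 or 2, nor CD8B without decitabine replicates 1 or 2 or DMSO replicates 1, 2 or 3. Of the same list 2 genes were lower without decitabine replicate 3, and 1 without DMSO replicate 1 or 3. Of 25 HOX genes 2 were higher (8%), the neighbours HOXB5 and HOXB6. HOXB5 had 24.4, 27.5 and 27.6 CPM in the decitabine libraries, against 14.01, 4.77 and 10.7 CPM in the DMSO libraries, and HOXB6 had 7.26, 6.998 and 8.26 CPM with decitabine and 3.31, 1.91 and 2.48 CPM with DMSO. HOXB5 was not called without decitabine replicates 1, 2 or 3 or DMSO replicates 2 or 3, nor HOXB6 without decitabine replicates 1 or 3 or DMSO replicates 2 or 3. In the Notch pathway 2 of 22 were higher (9.09%), both ligands. JAG1 had 1.81, 3.37 and 2.54 CPM in the decitabine libraries, against 0, 0 and 0 CPM in the DMSO libraries, at least 12.5-fold higher with 3 reads over the DMSO group as the floor, and DLL3 had 8.35, 16.1 and 13.02 CPM in the decitabine libraries, against 0.787, 2.67 and 3.51 CPM in the DMSO libraries, a log2 change of 2.42 ± 0.48 (SE), adjusted p = 0.0028. Both ligands kept their calls without each library.

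Markers of other blood lineages and of vessels rose in small numbers. Among all tested genes 11.6% were higher at a DMSO mean of up to 0.5 CPM and 5.07% at 0.5 to 5 CPM. Of 16 B-cell genes 3 were higher, with a median log2 change of 0.87. SPIB, an Ets factor of B cells and plasmacytoid cells, had 9.53, 15.6 and 13.02 CPM in the decitabine libraries, against 3.78, 2.29 and 1.45 CPM in the DMSO libraries, a log2 change of 2.27 ± 0.40 (SE), adjusted p = 0.001. SPIB kept its call without each library. VPREB1, part of the surrogate light chain, had 1.81, 2.33 and 3.81 CPM with decitabine and 0.157, 1.15 and 1.03 CPM with DMSO. VPREB1 was not called without decitabine replicates 2 or 3 or DMSO replicates 1 or 3. PAX5, the defining B-cell factor, had 2.36, 5.18 and 5.399 CPM with decitabine and 1.26, 0.763 and 1.65 CPM with DMSO and did not pass the test (adjusted p = 0.077). MS4A1, the surface protein CD20, did not pass the filter on low counts. The list's count was 5 without decitabine replicate 1. The summed level of the B-cell list was 286 to 391 CPM with decitabine and 279 to 349 CPM with DMSO.

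Of 19 genes of natural killer and cytotoxic cells 2 were higher, NKG7 and TBX21, and the count was 1 without decitabine replicate 3 or DMSO replicates 1 or 3. NKG7, a granule protein, had 20.3, 19.7 and 16.8 CPM in the decitabine libraries, against 6.297, 11.4 and 9.296 CPM in the DMSO libraries, a log2 change of 1.1 ± 0.22 (SE), adjusted p = 0.0028 that held without each library. TBX21, the factor T-bet, had 3.27, 1.81 and 7.94 CPM with decitabine and 0.787, 1.53 and 0.826 CPM with DMSO. TBX21 was not called without decitabine replicate 3 or DMSO replicates 1 or 3. The summed level of the natural killer and cytotoxic list was 138 to 189.6 CPM with decitabine and 80.5 to 127 CPM with DMSO. Of 18 stem and progenitor genes 3 were higher, with a median log2 change of 0.59. CD34, a surface protein of progenitors, had 16.6, 26.2 and 46.4 CPM in the decitabine libraries, against 4.09, 1.91 and 6.404 CPM in the DMSO libraries, and AVP, which encodes vasopressin and is also a known transcript of blood stem cells, had 5.08, 3.63 and 2.54 CPM in the decitabine libraries, against 0, 0 and 0 CPM in the DMSO libraries, at least 23.7-fold higher at the same floor. GATA2, a factor of progenitors and mast cells, had 13.6, 16.1 and 14.3 CPM with decitabine and 4.41, 5.92 and 4.34 CPM with DMSO. GATA2 was not called without decitabine replicate 2 or DMSO replicates 1 or 3. Of 7 erythroid genes HBA2 and GATA1 were called at under 3 CPM, with 2 DMSO reads each and depth-scaled read ratios of 15.04 (95% counting interval 3.85 to 129) and 9.12 (95% counting interval 2.21 to 80.4). HBA2 shares near-identical sequence with HBA1. HBA2 was not called without decitabine replicates 1 or 2 or DMSO replicates 1, 2 or 3, nor GATA1 without decitabine replicates 2 or 3 or DMSO replicates 1, 2 or 3. HBA2 had a fitted log2 change of 2.64 leaving out decitabine replicate 1 and 2.94 leaving out DMSO replicate 1, GATA1 of 2.5 leaving out DMSO replicate 1.

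Endothelial genes were higher in 5 of 16 tested, with a median log2 change of 0.95, and in 2 without decitabine replicates 2 or 3 or DMSO replicates 1 or 3. BCL6B, a transcriptional repressor, had 6.44, 6.74 and 5.72 CPM in the decitabine libraries, against 0, 0.191 and 0.6198 CPM in the DMSO libraries, a log2 change of 4.6 ± 0.77 (SE), adjusted p = 0.0005. ESAM, an adhesion molecule of vessels, had 1.27, 1.296 and 6.04 CPM in the decitabine libraries, against 0, 0 and 0 CPM in the DMSO libraries, at least 11.6-fold higher at the floor of 3 reads. Its level in decitabine replicate 3, the shallowest library, stood far above those in decitabine replicates 1 and 2. CLDN5, a tight-junction protein, was at least 4.25-fold higher at that floor. PECAM1, a junction protein shared with platelets and leukocytes, and FLT1, a receptor of vascular growth factor, rose by 0.98 and 0.92 on the log2 scale. CLDN5 was not called without decitabine replicates 2 or 3 or DMSO replicates 1, 2 or 3, nor PECAM1 and FLT1 without decitabine replicates 2 or 3 or DMSO replicates 1 or 3. BCL6B had a fitted log2 change of 3.94 leaving out DMSO replicate 1 and 5.96 leaving out DMSO replicate 3, ESAM of 6.39 leaving out decitabine replicate 3. The summed level of the endothelial list was 171 to 213 CPM with decitabine and 128 to 158 CPM with DMSO.

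Of 18 muscle genes 3 were higher, MB, PYGM and SYNPO2L. PYGM, the glycogen phosphorylase of muscle, had 4.72, 3.11 and 3.49 CPM in the decitabine libraries, against 0, 0.191 and 0.413 CPM in the DMSO libraries, with 3 DMSO reads and a depth-scaled read ratio of 22.8 (95% counting interval 7.505 to 113). SYNPO2L was at least 3.95-fold higher at the floor of 3 reads, and decitabine replicate 3 held none of its reads. SYNPO2L was not called without decitabine replicates 1 or 2 or DMSO replicates 1, 2 or 3. PYGM had a fitted log2 change of 3.65 leaving out DMSO replicate 1 and 5.26 leaving out DMSO replicate 3. Of 24 neuronal genes VGF and CPLX1 were higher, and the count was 4 without DMSO replicate 2, while 1 was lower without DMSO replicate 3. VGF, a precursor of secreted neuropeptides, had 14.6, 22.03 and 72.4 CPM in the decitabine libraries, against 2.36, 7.44 and 2.89 CPM in the DMSO libraries, a log2 change of 3.06 ± 0.47 (SE), adjusted p = 0.00018, with decitabine replicate 3 far above the other 2. CPLX1, a regulator of synaptic vesicle release, had 2.995, 2.85 and 4.76 CPM with decitabine and 0, 0.763 and 0.207 CPM with DMSO. VGF had a fitted log2 change of 2.1 leaving out decitabine replicate 3 and 3.74 leaving out DMSO replicate 2, CPLX1 of 2.75 leaving out DMSO replicate 1 and 5.03 leaving out DMSO replicate 2. The summed level of the muscle list was 167 to 189.7 CPM with decitabine and 75.6 to 139 CPM with DMSO. The summed level of the neuronal list was 340.1 to 412 CPM with decitabine and 284 to 311 CPM with DMSO. MYH7, a myosin heavy chain of striated muscle, and KDR and CDH5, defining endothelial genes, did not pass the filter on low counts. The part of other cell types in these results was not tested.

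Falls were smaller than rises, and under the rule that took them none reached 2-fold. PTP4A2, the membrane-bound phosphatase PRL-2, had 529, 471 and 499.6 CPM in the decitabine libraries, against 951, 954 and 1007 CPM in the DMSO libraries. Its log2 change was -0.96 ± 0.12 (SE), adjusted p = 1.8e-05. The 3 values of each treatment lay within a narrow band and the bands were far apart. MTHFD2L, a folate enzyme of mitochondria, had 60.3, 48.7 and 53.7 CPM in the decitabine libraries, against 92.6, 82.4 and 92.96 CPM in the DMSO libraries, a log2 change of -0.71 ± 0.16 (SE), adjusted p = 0.006. RNASEH2B, a subunit of the nuclease that removes ribonucleotides from DNA, had 99.8, 86.05 and 94.01 CPM in the decitabine libraries, against 156, 168 and 135 CPM in the DMSO libraries, a log2 change of -0.71 ± 0.15 (SE), adjusted p = 0.0043. LDHB, the heart-type subunit of lactate dehydrogenase, had 673, 606 and 600.0 CPM in the decitabine libraries, against 868, 985 and 867 CPM in the DMSO libraries, a log2 change of -0.53 ± 0.12 (SE), adjusted p = 0.0062. These 4 falls, with MAGEF1 (-0.82) and ARHGAP19 (-0.69), held without each library, out of 12 lowered genes that did. XRCC4, a partner of the ligase that joins broken DNA ends, had 6.62, 6.998 and 6.99 CPM with decitabine and 11.97, 9.35 and 12.2 CPM with DMSO. WWOX, an oxidoreductase with WW domains, had 10.6, 7.78 and 6.67 CPM with decitabine and 14.8, 14.3 and 16.9 CPM with DMSO. XRCC4 and TATDN3 were not called without decitabine replicates 1, 2 or 3 or DMSO replicates 1 or 3, nor WWOX without decitabine replicates 2 or 3 or DMSO replicates 1 or 3, nor CLDND2 without decitabine replicates 1 or 3 or DMSO replicates 1 or 3. TATDN3 and CLDND2 had fitted log2 changes of -0.81 and -0.84.

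Metabolic lists held few calls. Of 56 genes of the respiratory chain 3 were lower, NDUFA12, NDUFS3 and the assembly factor SDHAF3, with log2 changes of -0.48, -0.44 and -1.2 and a list median of -0.19. NDUFA12 was not called without any 1 of the 6 libraries, nor NDUFS3 without decitabine replicates 1, 2 or 3 or DMSO replicate 2, nor SDHAF3 without decitabine replicates 1 or 2 or DMSO replicate 2. Of 26 genes of glycolysis SLC2A3, a glucose transporter, was higher with 38.1, 39.9 and 44.5 CPM in the decitabine libraries, against 28.8, 14.5 and 19.01 CPM in the DMSO libraries, a log2 change of 0.96 ± 0.19 (SE), adjusted p = 0.0032 that held without each library, and LDHB was lower. Without DMSO replicate 2, 4 glycolysis genes were lower, and without DMSO replicate 1, 2 were higher. Of 32 cholesterol and lipid genes ACLY, which makes acetyl-CoA from citrate, was lower with 226, 255 and 256 CPM with decitabine and 314, 362 and 316 CPM with DMSO and a list median of -0.31. ACLY was not called without decitabine replicates 1, 2 or 3 or DMSO replicate 2. Without DMSO replicate 2 the list held 2 higher genes and none lower. In the list of the integrated stress and unfolded protein responses 1 of 32 was higher and 1 lower. Without DMSO replicate 2 the counts were 2 higher and 3 lower, and leaving out DMSO replicate 3 of TALL-1 and of MOLT-16 as well, which also held transcripts of other lines, 3 higher and 8 lower. CRELD2, a chaperone of the endoplasmic reticulum, had 60.4, 59.4 and 55.3 CPM in the decitabine libraries, against 35.1, 33.8 and 36.1 CPM in the DMSO libraries, a log2 change of 0.74 ± 0.16 (SE), adjusted p = 0.006. DDIT4, an inhibitor of mTORC1, had 117, 95.1 and 119 CPM with decitabine and 334, 115 and 194 CPM with DMSO, with overlapping ranges. DDIT4 was not called without decitabine replicates 1, 2 or 3 or DMSO replicates 1 or 3.

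Both mitochondrial ribosomal RNAs were higher among 15 mitochondrially encoded transcripts tested. MT-RNR2, the 16S RNA, had 5129, 4294 and 4351 CPM in the decitabine libraries, against 2576, 3342 and 2710.0 CPM in the DMSO libraries, a log2 change of 0.67 ± 0.14 (SE), adjusted p = 0.0036. MT-RNR1, the 12S RNA, had 943, 762 and 822 CPM in the decitabine libraries, against 564, 645 and 653 CPM in the DMSO libraries, a log2 change of 0.44 ± 0.13 (SE), adjusted p = 0.047. MT-RNR1 was not called without any 1 of the 6 libraries. MT-RNR2 kept its call without each library.

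Among non-coding transcripts AL713998.1 had 9.07, 10.1 and 15.9 CPM in the decitabine libraries, against 0.315, 0.191 and 0.207 CPM in the DMSO libraries, a log2 change of 5.45 ± 0.57 (SE), adjusted p = 1.1e-06. LINC01835 had 10.7, 10.9 and 14.9 CPM in the decitabine libraries, against 0.6297, 1.53 and 0.826 CPM in the DMSO libraries, a log2 change of 3.6 ± 0.61 (SE), adjusted p = 0.00073. The libraries of both were separated by treatment without overlap, as the rule that picked them required. LINC02195, AL034397.3 and the small nucleolar RNA SNORD46 rose by 2.18, 1.98 and 2.11 on the log2 scale. Since polyadenylated RNA was counted, the SNORD46 value does not stand for other RNA of that gene. All 5 kept their calls without each library.

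Many of the raised genes also rose in other lines, each of which had its own DMSO libraries. Of the 534, 260 were also called higher in Loucy (48.7% of the PEER genes and 16.3% of the Loucy genes), 230 in PER-117 (43.1% and 17.6%), 114 in TALL-1 (21.4% and 11.2%) and 90 in MOLT-16 (16.9% and 27.2%). The share of all tested genes that was higher was 10.6% in Loucy, 8.67% in PER-117, 6.74% in TALL-1 and 2.19% in MOLT-16. A count of 134 was called higher in no other line and 10 were called higher in all 4. A call in PEER without one elsewhere is no test of a difference, so the PEER response was set against the mean response of the other 4 lines in the same fit. That test called 34 genes with a more positive change in PEER (0.225%) and 38 with a more negative one (0.252%), against 33 and 21 without DMSO replicate 2 and 13 and 11 without decitabine replicate 2. The other single libraries gave 17 and 9 without decitabine replicate 1, 19 and 31 without decitabine replicate 3, 24 and 67 without DMSO replicate 1, and 24 and 49 without DMSO replicate 3. For some large rises the difference had no usable SE (10850 for TRH, 11030 for AVP and 8937 for KIF25), and the test could not call such genes. Its counts therefore do not give the extent of changes particular to PEER.

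MB had log2 changes of 6.35 in PEER, -0.62 in TALL-1, 1.07 in MOLT-16, 2.84 in Loucy and 1.01 in PER-117, and the difference of 5.27 ± 0.64 (SE) had an adjusted p of 4.1e-05. Loucy and PER-117 started from higher DMSO levels of MB, at 6.19 and 45.9 CPM. S100A4 had log2 changes of 2.21 in PEER, 1.99 in TALL-1, 0.04 in MOLT-16, -0.04 in Loucy and -0.24 in PER-117, so the TALL-1 change lay close to that of PEER, from DMSO means of 42.2 CPM in TALL-1 and 80.4 CPM in PEER, while the other 3 lines held 829.8, 2027 and 599 CPM with DMSO. The difference for S100A4 was 1.77 ± 0.28 (SE), adjusted p = 0.0013. KRT1 had log2 changes of 2.08 in PEER, 1.48 in TALL-1, -0.75 in MOLT-16, -0.43 in Loucy and -0.28 in PER-117, with a difference of 2.08 (adjusted p = 0.0026). With DMSO, KRT1 averaged 11.2 CPM in PEER, 9.98 in TALL-1, 61.0 in MOLT-16, 48.8 in Loucy and 221 in PER-117. The part of the starting level in these differences was not tested. In these 3 genes, and in VGF, FUOM, NPTXR and LGMN, the difference kept its call without each PEER library. LGMN, the lysosomal protease legumain, was lower in PEER with 9.89, 14 and 15.6 CPM with decitabine and 26.8, 46.2 and 22.9 CPM with DMSO, and had log2 changes of -1.33 in PEER, 0.60 in TALL-1, -0.90 in MOLT-16, 3.67 in Loucy and 2.36 in PER-117. In Loucy the DMSO mean of LGMN was 0.176 CPM and in PER-117 it was 0.2197 CPM, both close to the floor. LGMN was not called without decitabine replicates 1, 2 or 3 or DMSO replicate 2.

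**Figure D5:**
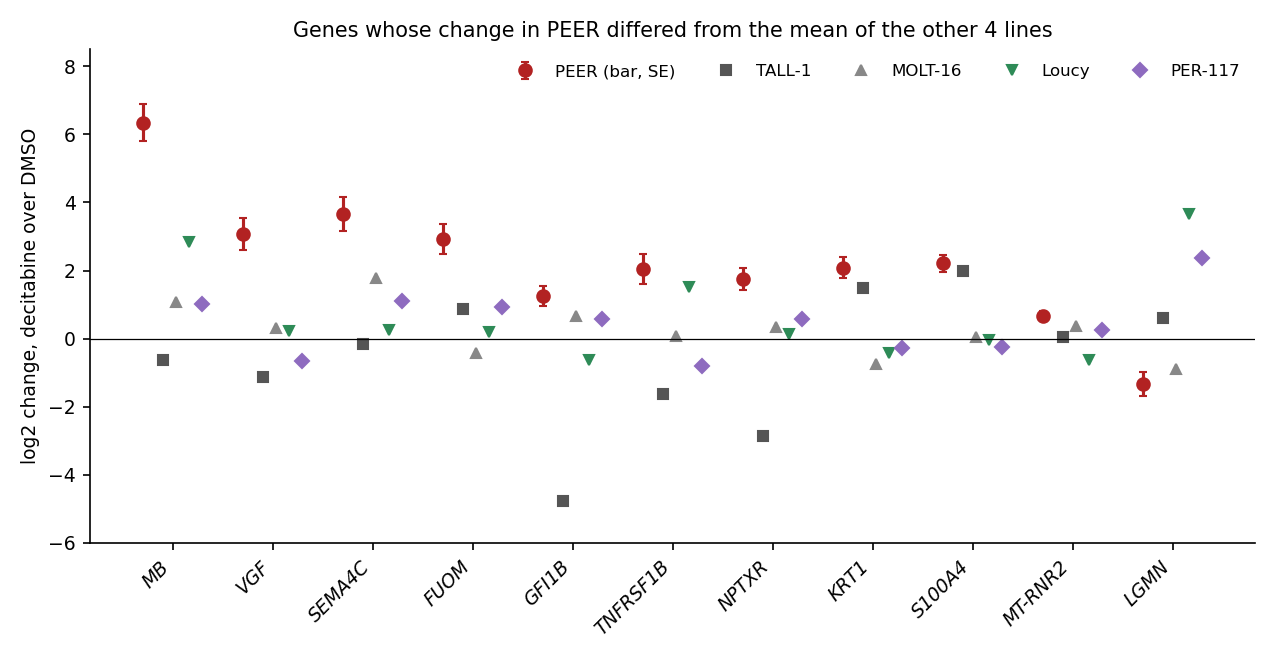
Log2 change, decitabine over DMSO, of 11 genes whose change in PEER differed from the mean of the other 4 lines, with PEER (red circles, bars ± 1 SE) and the 4 other lines as separate symbols. MB, VGF and SEMA4C lie above all other lines, S100A4 lies close to TALL-1, and LGMN lies below the other lines.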

How the data were processed

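RNA of 30 libraries from 5 T-ALL lines was measured by 3′-end sequencing (QuantSeq FWD, per the labels' protocols), and the 6 PEER libraries are described. The deposited values are whole-number read counts per gene with a column for each strand setting, in the format of the aligner STAR, whose version 2.4.2a and build GRCh38 are per the submitters' processing notes (annotation release: not given in the sources used here). The column for the gene's strand was used, and rows of unmapped, multimapped, unassigned and ambiguous reads were left out. IDs were named by GENCODE 29, which matched 56996 of 60554. PEER replicates are numbered by title, which for 2 DMSO libraries differs from the number in the deposited name.

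Genes passing filterByExpr (minimum count 10) were tested with edgeR 4.0.16 in R 4.3.3, by glmQLFit and glmQLFTest after TMM scaling, with 10 group means over all 30 libraries and Benjamini-Hochberg adjustment over 15081 genes. Pooling the spread over all groups assumes that PEER libraries vary like the others, also where a group keeps 2 libraries. The contrast was PEER decitabine minus PEER DMSO, and the difference from other lines was that contrast minus the mean of the same contrast in 4 lines. DESeq2 1.42.0 was an alternative, run on the PEER libraries alone. The test was checked on simulated data. It recovered 88 of 100 genes changed by 2 log2 units and 70 of 100 changed by 1, and called 18 unchanged genes. Changes were put only into genes above a minimum DMSO level, so the check does not cover the lowest genes. CPM use TMM-scaled library sizes, and intervals and floors of 3 reads cover counting error only, since reads carry no molecular identifiers.

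Members and gene lists were chosen with earlier results of these data known, and a list's count is a description. Named genes were those called with and without DMSO replicate 2, reaching 5 CPM, without overlap of treatments (the 20 largest rises of at least 2-fold, the 10 largest falls, 5 non-coding rises), at most 4 called members of a list, and the 8 largest differences from other lines in each direction, leaving out cancer-testis and myeloid genes. Genes outside the rule, and the 4 promoter sequences, were chosen after their values were seen. Some named genes are not reported here. The rule for matching promoters to genes was also settled after their CpG content was seen.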

Additional observations from a re-analysis of the deposited data

Results flagged for a closer look

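These 11 results were singled out among the named genes because the test of the difference itself called them. It set the change after decitabine in PEER against the mean change of Loucy, PER-117, TALL-1 and MOLT-16, by edgeR with Benjamini-Hochberg adjusted p-values. Over all tested genes it called 34 with a more positive and 38 with a more negative change in PEER. Named genes had to be called in PEER itself, so the signs of the 11 do not stand for those counts. Each difference is PEER minus the mean of the other lines on the log2 scale, and TALL-1 and MOLT-16 each hold 1 DMSO library with transcripts of other lines.

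The difference was 5.27 ± 0.64 (SE, adjusted p = 4.1e-05) for MB, 3.38 ± 0.54 (SE, adjusted p = 0.0017) for VGF, 2.53 ± 0.48 (SE, adjusted p = 0.0087) for FUOM, 2.08 ± 0.35 (SE, adjusted p = 0.0026) for KRT1, 1.77 ± 0.28 (SE, adjusted p = 0.0013) for S100A4 and -2.76 ± 0.47 (SE, adjusted p = 0.0037) for LGMN. FUOM, a fucose mutarotase, had 4.81, 4.67 and 6.35 CPM with decitabine and 0.6297, 1.15 and 0.207 CPM with DMSO in PEER. Its DMSO means were higher in the other lines, at 7.82 CPM in TALL-1, 5.055 in MOLT-16, 6.11 in Loucy and 11.4 in PER-117. For VGF they were 4.71, 2.63, 7.98 and 2.37 CPM in the same order, against 4.23 CPM in PEER. Without PEER DMSO replicate 2 the difference was 6.59 for MB and 4.06 for VGF, and without PEER decitabine replicate 3 it was 2.41 for VGF, with the calls kept. All 6 kept their calls without each PEER library and without the 3 DMSO libraries that hold transcripts of other lines.

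SEMA4C had a difference of 2.92 ± 0.58 (SE, adjusted p = 0.014), and the call was lost without decitabine replicate 2 or DMSO replicate 1. TNFRSF1B had 2.24 ± 0.50 (SE, adjusted p = 0.033). That value was 4.07 (adjusted p = 1.6e-05) without DMSO replicate 2, and the call was lost without any other single PEER library. MT-RNR2 had 0.66 ± 0.15 (SE, adjusted p = 0.047), kept without DMSO replicate 2 and lost without any other single PEER library. GFI1B, a repressor of erythroid and megakaryocyte cells, had 2.30 ± 0.53 (SE, adjusted p = 0.047). Its PEER levels were 10.1, 11.7 and 10.5 CPM with decitabine and 4.41, 4.198 and 4.75 CPM with DMSO, the call was lost without any 1 PEER library, and without the 3 mixed libraries the difference was 1.00 (adjusted p = 1). NPTXR, a neuronal pentraxin receptor, had 2.21 ± 0.45 (SE, adjusted p = 0.015) with PEER levels of 15.2, 17.6 and 20.96 CPM with decitabine and 5.35, 4.96 and 5.37 CPM with DMSO, kept without each PEER library and lost without the 3 mixed libraries at 1.67 (adjusted p = 0.21). For GFI1B and NPTXR the change in TALL-1 was -4.77 and -2.88 on the log2 scale at DMSO means of 0.358 and 1.05 CPM, levels close to the floor. SEMA4C had DMSO means of 0.434 CPM in PEER, 0.795 in TALL-1, 1.99 in MOLT-16, 34.2 in Loucy and 10.3 in PER-117. For TNFRSF1B they were 3.86, 4.63, 119.8, 33.05 and 77.2 CPM in the same order. The part of the starting level in the differences was not tested.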

How the results depend on the processing

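The direction of each of the 133 named genes was the same under every alternative in which it was tested, except that of TRAC, whose log2 change was 0.32 without DMSO replicate 2 and 0.33 without the 3 mixed DMSO libraries, and ranged between -2.93 and 0.32 with 1 PEER library left out. The counts of higher and lower genes were 300 and 35 with the 6 PEER libraries alone, 578 and 89 with RLE scaling (the median of all genes moving by 0.04 log2), 782 and 247 with no filter on low counts (33057 genes tested), 426 and 114 with the filter on the PEER groups (11905 genes), 503 and 133 with unstranded counts, 428 and 95 by DESeq2 on the PEER libraries, and 734 and 141 without the 3 mixed libraries. With 1 PEER library left out they ranged between 332 and 491 higher and between 34 and 150 lower. For the difference from other lines the counts were 13 to 33 and 9 to 67 with 1 PEER library left out, 41 and 27 with RLE scaling, and 88 and 110 without the 3 mixed libraries. Of the 133 named calls, 91 to 102 were kept with 1 library left out, 78 with the PEER libraries alone and 100 by DESeq2. The cause of these moves was not tested. Whether replicate numbers pair the libraries cannot be told, since title and deposited name give different numbers for 2 DMSO libraries. By title, the correlations of deviations were 0.38, 0.11 and -0.33 for numbers 1, 2 and 3. By deposited name, number 2 gave -0.08 and number 3 gave 0.39. A replicate block on the title numbers gave 499 higher and 139 lower. Depth limits the low genes: 3 reads were 0.272 CPM in decitabine replicate 1, the deepest library, and 0.953 CPM in decitabine replicate 3, the shallowest.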

Other observations

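Some of the clearest changes among well-expressed genes fell outside the gene lists and were chosen after their values were seen. DHRS2, a short-chain dehydrogenase/reductase, had 610.2, 557 and 739.7 CPM in the decitabine libraries, against 111, 84.3 and 88.2 CPM in the DMSO libraries, a log2 change of 2.75 ± 0.46 (SE), adjusted p = 0.00053 by edgeR. LAPTM5, a lysosomal membrane protein that lowers surface antigen receptors in lymphocytes, had 192, 201 and 225 CPM in the decitabine libraries, against 50.5, 73.1 and 62.4 CPM in the DMSO libraries, a log2 change of 1.74 ± 0.17 (SE), adjusted p = 3.8e-07. SLC43A2, an amino-acid transporter, had 295, 285 and 249 CPM in the decitabine libraries, against 101, 123 and 88.01 CPM in the DMSO libraries, a log2 change of 1.41 ± 0.29 (SE), adjusted p = 0.0039. In these 3 genes all decitabine libraries were above all DMSO libraries and the calls held without each library.

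Also chosen after its values were seen, SH2D2A, the T-cell specific adaptor, had 88.7, 113 and 123 CPM in the decitabine libraries, against 22.04, 56.9 and 30.99 CPM in the DMSO libraries, a log2 change of 1.56 ± 0.24 (SE), adjusted p = 0.00018. SLA, an adaptor that restrains receptor signalling, had 115, 103 and 123 CPM in the decitabine libraries, against 30.9, 89.9 and 51.2 CPM in the DMSO libraries, a log2 change of 0.99 ± 0.21 (SE), adjusted p = 0.0051, 1.48 without DMSO replicate 2. The focal-adhesion protein ZYX had 53.3, 47.4 and 52.1 CPM in the decitabine libraries, against 14.5, 26.1 and 20.4 CPM in the DMSO libraries, a log2 change of 1.33 ± 0.21 (SE), adjusted p = 0.00029. SH2D2A, SLA and ZYX kept their calls without each library. CCND2, cyclin D2, had 60.4, 70.8 and 56.9 CPM in the decitabine libraries, against 19.99, 26.3 and 18.2 CPM in the DMSO libraries, a log2 change of 1.54 ± 0.36 (SE), adjusted p = 0.01. CCND2 was not called without DMSO replicate 3.

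The constant segment TRBC1 of the T-cell receptor β chain read 9.71, 8.81 and 115 CPM with decitabine and 33.7, 213 and 43.2 CPM with DMSO, so that decitabine replicate 3 and DMSO replicate 2 stood above the other 4 libraries.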
